A study of Mus musculus with 9 samples.

Results

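The members are 435 distal regions of the mouse genome where an antibody against tagged MyoD1 gave CUT and RUN peaks, and where the DNA held an AP-1 heptamer but no CAGCTG. Peaks of the 6 lists were merged where they overlapped or touched, which gave 58309 regions. Of these, 18774 had a peak in at least 2 of the 6 libraries. The centre of 5635 of those lay more than 10 kb from every annotated transcript start and off coding exons, and these were called distal. The 435 members were the distal regions whose merged interval held TGACTCA or its reverse complement TGAGTCA and held no CAGCTG. They made up 7.72% of the distal regions. A further 2270 distal regions held both motifs, 2403 held CAGCTG without the heptamer, and 527 held neither.

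All libraries came from C2C12, a mouse skeletal muscle myoblast line. In this clonal derivative Myod1 carries a 3xFlag-Halo tag at its own locus, and a doxycycline (dox) inducible 3xFlag-Halo-MyoD1 transgene is present as well, so the controls carry both alleles too. There were 3 untreated libraries (no dox) and 3 libraries from cells given dox for 6 h (+dox), and all cultures were switched to differentiation medium at the start of those 6 h. Both copies of MyoD1 carry the tag, so the antibody cannot tell them apart, and the +dox condition adds the transgene product to the endogenous protein. The 3 wild-type libraries came from untagged cells and were not analysed here. The values therefore have no untagged background beside them.

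MyoD1 is a basic helix-loop-helix factor that drives muscle differentiation and binds the E-box CANNTG as a dimer with E proteins. CAGCTG is the E-box it is best known to prefer. AP-1 is a family of leucine zipper dimers of FOS, JUN and related proteins that bind the heptamer TGACTCA in enhancers of genes for growth, matrix and adhesion. FOS and JUN were not measured in these libraries. The label of the group therefore rests on sequence alone, and "no E-box" means only that CAGCTG was missing: 433 of the 435 members (99.5%, 95% Wilson interval 98.3 to 99.9) held at least 1 other CANNTG.

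The windows below show the heptamer nearest to the maximum of the highest-ranked peak, with 30 bases on each side, from the plus strand of GRCm38 (mm10) as RefSeq gives it. The heptamer is in capitals, and each window is named by the nearest protein-coding start. The first set holds the 4 members with the highest mean peak rank among those called in all 6 libraries, because they are the strongest sites of the group.
Runx1 chr16:92904102-92904168: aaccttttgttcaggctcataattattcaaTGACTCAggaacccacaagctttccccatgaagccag
Tas1r2 chr4:139716686-139716752: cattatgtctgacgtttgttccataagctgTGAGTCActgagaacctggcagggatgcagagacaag
Gosr2 chr11:103685248-103685314: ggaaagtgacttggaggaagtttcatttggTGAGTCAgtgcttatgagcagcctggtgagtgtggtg
Rnf150 chr8:82926621-82926687: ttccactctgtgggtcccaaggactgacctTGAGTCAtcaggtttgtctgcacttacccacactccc

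The second set holds the 4 highest-ranked members called in all 3 +dox libraries and in 0 no dox libraries, since these carry the clearest difference in calls.
Axin2 chr11:108980660-108980726: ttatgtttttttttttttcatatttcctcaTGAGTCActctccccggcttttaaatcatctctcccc
Serpina12 chr12:104056016-104056082: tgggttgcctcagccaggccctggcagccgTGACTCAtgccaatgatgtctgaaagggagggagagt
Olfr412 chr11:74439253-74439319: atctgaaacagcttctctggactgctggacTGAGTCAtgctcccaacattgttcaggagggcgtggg
Fam171a1 chr2:3158116-3158182: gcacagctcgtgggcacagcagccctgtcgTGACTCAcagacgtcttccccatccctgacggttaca

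The third set holds 1 of the members whose rank rose most with dox (F2rl1) and the 2 whose rank fell most (Lrrc10, Osbpl10), among members called in every library.
F2rl1 chr13:95545894-95545960: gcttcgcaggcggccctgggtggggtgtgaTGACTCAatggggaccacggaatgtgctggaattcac
Lrrc10 chr10:117020885-117020951: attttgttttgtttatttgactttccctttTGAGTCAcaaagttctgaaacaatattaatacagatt
Osbpl10 chr9:115149673-115149739: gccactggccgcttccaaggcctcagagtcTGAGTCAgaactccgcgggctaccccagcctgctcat

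In these 11 windows the heptamer lay between 51 and 330 bp from the maximum. The F2rl1 window also held CATTCC, the hexamer of TEAD factors. The window of Gosr2 held an E-box other than CAGCTG.

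Within each group the libraries varied in depth and in number of peaks. Depth ranged from 2868000 to 8030000 alignments and list length from 9389 to 53661 peaks, and +dox replicate 3 had the highest of both. That library called all 435 members, and 212 members, all of those called in exactly 2 libraries, had it as one of the pair. Without it, 223 of the same 435 intervals (51.3%) still had a peak in at least 2 libraries, against 66.5% of regions with both motifs, 60.4% of regions with CAGCTG alone and 44.97% of regions with neither. When the merging and the rule were repeated on the other 5 lists, 274 members were found. A further 2256 distal regions of the same motif class were called in 1 library only, and 93.75% of those calls came from +dox replicate 3.

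Members were called less widely than regions with CAGCTG. Calls by no dox replicates 1, 2 and 3 covered 103, 190 and 292 members, and calls by +dox replicates 1, 2 and 3 covered 141, 212 and 435. The numbers of the groups overlap, and the third replicate was the highest in each. Of the members, 212 were called in 2 libraries, 88 in 3, 41 in 4, 43 in 5 and 51 in all 6. Thus 11.7% of members (Wilson interval 9.03 to 15.1) were called in every library, compared with 25.8% of all 18774 regions, 28.9% of distal regions with both motifs, 21.7% of those with CAGCTG alone and 7.78% of those with neither. The Wilson intervals cover counting error only, since regions of the same libraries are not replicates. A merged region is the union of its peaks, so its width, its motif class and its number of calls are linked. The median width was 1150 bp in members, 1450 bp with both motifs, 1300 bp with CAGCTG alone and 1100 bp with neither. Calls in every library were not compared at matched width.

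**Figure D1:**
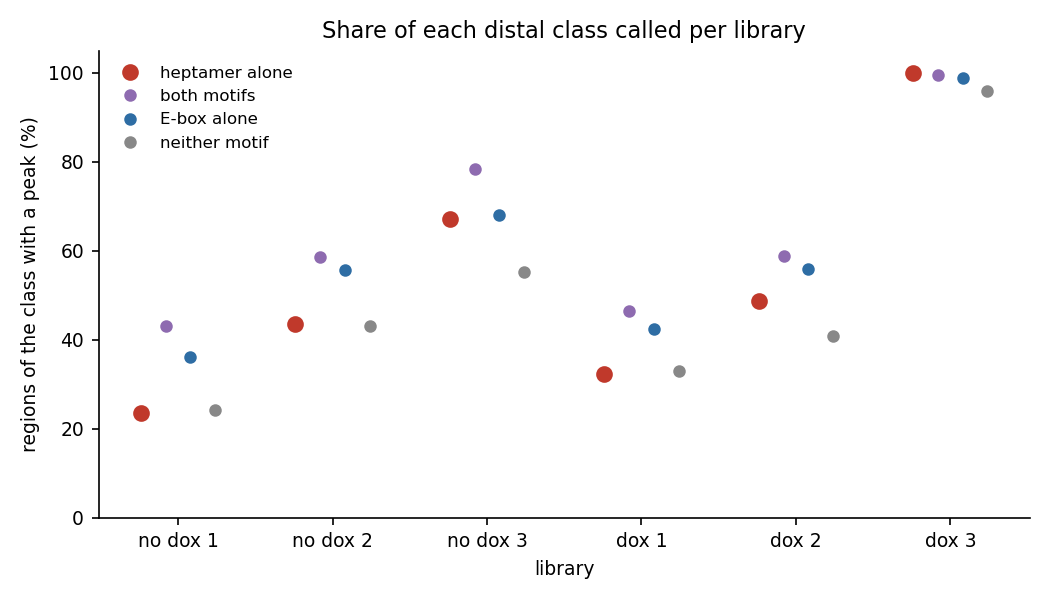
Percent of the regions of each distal class (y axis) that had a peak in each library (x axis), 1 point per class and library; "heptamer alone" marks the 435 members. The members sit below the regions with CAGCTG alone in 5 of the 6 libraries, and every class is near its ceiling in +dox replicate 3, where all 435 members were called.

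The share of members that a library called was set against the share of regions with CAGCTG and no heptamer that it called, so that the length of the list entered both. The difference was -12.5, -12.0 and -1.04 percentage points in no dox replicates 1, 2 and 3. It was -10.1, -7.19 and 1.21 points in +dox replicates 1, 2 and 3. In +dox replicate 3 the shares called were 100% and 98.8%, so the value of that library could not lie far from 0. The members were thus called less often in 5 of 6 libraries, and the groups overlapped. Within replicate numbers the difference was higher with dox in 3 of 3 pairs, by 2.41, 4.81 and 2.25 points (exact sign-flip p = 0.25, the smallest that 3 pairs allow). The means were -8.51 ± 6.47 without dox and -5.35 ± 5.86 with dox (SD, n = 3), a difference of 3.15 points (exact two-sided permutation p = 0.5, adjusted p = 0.562). With 3 libraries against 3 this test cannot give a p below 0.1. The regions were themselves chosen by calls in these libraries, and the third pair holds the library at its ceiling. The call rates are thus not independent of the rule, and no conclusion on dox is drawn from them.

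A change in the members' share of distal peaks with dox was not detectable with 3 libraries a group. Members were 4.96%, 6.16% and 7.30% of the distal regions called in no dox replicates 1, 2 and 3, and 5.90%, 6.82% and 7.81% in the +dox replicates. The +dox value was higher in 3 of 3 pairs of the same number (exact sign-flip p = 0.25), while the groups overlapped. These shares too come from the calls that chose the regions. The means were 6.14 ± 1.17% and 6.84 ± 0.952% (SD, n = 3), a difference of 0.705 points (exact two-sided permutation p = 0.5, adjusted p = 0.562).

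With dox, 15 members were called in 3 of 3 +dox and in 0 of 3 no dox libraries. This was 3.45% of members (Wilson interval 2.10 to 5.61), against 3.38% of all regions. The reverse pattern was found in 0 members, which allows a share of up to 0.875% by the Wilson interval, against 0.0266% of all regions. A looser rule, at least 2 +dox libraries and fewer than 2 no dox libraries, held for 126 members (29.0%), against 28.4% of all regions and 23.5% of all distal regions. Its reverse held for 29 members (6.67%), against 5.11% of all regions. Each share of members is close to that over all regions, so these counts do not set the members apart. Leaving out a library eases the first rule, since fewer libraries must call or miss a region, and it changes the set of members. The count of 15 became 48 of 422 without +dox replicate 1 and 30 of 406 without +dox replicate 2. It was 26 of 413 when no dox replicate 2 was dropped. When every list was cut to 1 length, it was 6 of 262 members. The share over all regions was not counted in these settings, so they do not set the members apart either.

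Peaks in members were of middling height. Height is given as the percentile of a peak's maximum signal within its own list, which does not depend on the CPM scale but does move with the length of a list. The median member peak stood at percentiles 48.5, 51.0 and 55.3 in no dox replicates 1, 2 and 3, and at 45.3, 46.9 and 82.2 in +dox replicates 1, 2 and 3. The last value belongs to the longest list. In alignments at the maximum, the median member peak held 22, 20 and 16 without dox and 22, 24 and 36 with dox, so these peaks rest on few alignments.

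Members ranked below distal regions with CAGCTG alone in 6 of 6 libraries. The difference of the medians was -12.9, -9.64 and -5.84 percentile points without dox and -7.54, -7.49 and -1.83 with dox. Its mean was -7.55 ± 3.72 (SD, n = 6; exact two-sided sign-flip p = 0.031, and 6 libraries cannot give a smaller one). The test takes the 6 libraries as independent, although same-numbered libraries were taken as pairs, and 3 pairs cannot give a p below 0.25. The p adjusted over the 9 tests of the report was 0.141, so the difference does not pass after correction. It was -5.53 (exact p = 0.125) when only intervals of 500 to 1500 bp were used, and -11.8 (exact p = 0.0625) without +dox replicate 3. The median interval was 1150 bp in members and 1300 bp in regions with CAGCTG alone. Between the groups the difference changed by 3.85 points (exact permutation p = 0.3), and the groups overlapped. It was higher with dox in 3 of 3 pairs, by 5.40, 2.15 and 4.01 points (exact sign-flip p = 0.25).

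Against distal regions with neither motif, the median member peak was higher in 5 of 6 libraries. The differences were 11.95, 6.13 and 16.8 percentile points in no dox replicates 1, 2 and 3 and 4.66, 0 and 10.2 points in the +dox replicates. The mean was 8.28 ± 5.92 (SD, n = 6; exact two-sided sign-flip p = 0.0625, adjusted p = 0.141). Without +dox replicate 3 it was 2.76 (exact p = 0.5). This test too takes the libraries as independent.

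**Figure D2:**
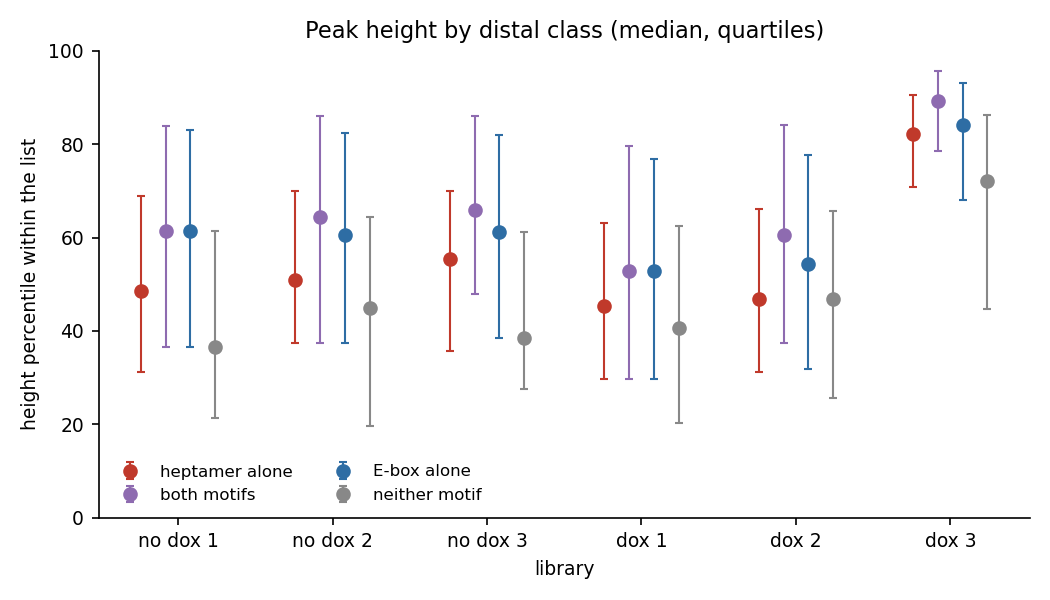
Height percentile of peaks within each list (y axis) for the 4 distal classes in each of the 6 libraries (x axis); points are medians and bars run from the lower to the upper quartile over regions. The members' medians, from 45.3 to 82.2, lie below those of regions with CAGCTG alone in every library, and the quartile ranges of all classes overlap.

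Peak maxima lay near the heptamer more often than positions of the same intervals did. Of the member maxima, 47.6%, 36.3% and 37.7% lay within 100 bp of a heptamer in the 3 no dox libraries, in order of number. In the +dox replicates the shares were 48.9%, 47.2% and 50.6%. Of all positions in the same merged intervals, between 21.1% and 22.5% lay as close. The excess was therefore 15.2 to 28.1 percentage points, positive in 6 of 6 libraries, with a mean of 22.9 ± 5.63 (SD, n = 6; exact two-sided sign-flip p = 0.031, adjusted p = 0.141). This test too takes the libraries as independent. Maxima lie inside their intervals, so positions near an edge count in the comparison level although few maxima fall there. Part of a positive excess is thus built in, and the test against 0 cannot tell how much belongs to the heptamer. The excess was 19.3 ± 6.03 points without dox and 26.6 ± 1.58 with dox (SD, n = 3; exact permutation p = 0.2, adjusted p = 0.36), and the groups overlapped. It was higher with dox in 3 of 3 pairs, by 0.577, 9.73 and 11.7 points (exact sign-flip p = 0.25).

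The same measure gave smaller means for other motifs in the members. For CAGGTG, the excess over positions averaged 14.5 ± 3.07 points, and for CAGATG 10.3 ± 2.03 points (SD, n = 6). For the TEAD hexamer CATTCC it was 10.04 ± 4.55 points and for the RUNX hexamer TGTGGT 9.75 ± 3.84 points. For CACGTG it was 7.05 ± 4.29 points, and for any CANNTG other than CAGCTG 10.99 ± 1.72 points. For CATATG it was 1.80 ± 3.74 points, below 0 in each no dox library and above 0 in each +dox library, from 17 to 91 peaks. For the other motifs named here the groups overlapped. The split for CATATG was picked out among several motifs, rests on few peaks and was not tested. The excess thus varied between motifs, and the comparison level does not allow for the distance from the edges, so the values are set side by side with no test. The levels also differ. Between 65.2% and 67.3% of positions lay near a CANNTG other than CAGCTG, against 21.1% to 22.5% near a heptamer, which leaves less room for an excess. Each mean covers only members that hold the motif. In distal regions with both motifs the heptamer excess was lower than in members in 5 of 6 libraries, by a mean of 4.62 ± 3.58 points (SD, n = 6; exact two-sided sign-flip p = 0.0625, adjusted p = 0.141). This comparison was added after the data were seen. Over 18 alternatives its mean ran from -0.143 to 6.19 points. With intervals of 500 to 1500 bp alone it was 1.85 (exact sign-flip p = 0.156), and regions with both motifs are the wider class. In regions with CAGCTG alone, the E-box excess was 23.9 to 43.8 points, higher than the heptamer excess of the members in each library by 7.57 to 19.4 points.

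**Figure D3:**
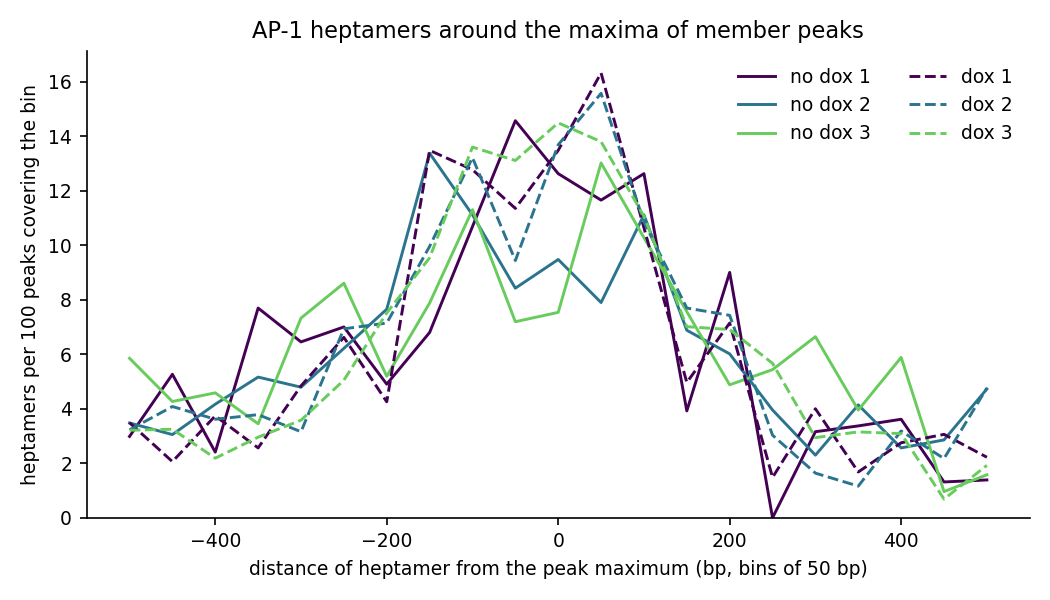
Heptamers per 100 member peaks (y axis) against their distance from the peak maximum in bins of 50 bp (x axis), 1 line per library; the count is over peaks whose merged interval covers the bin. In each library most bins within 100 bp of the maximum hold more heptamers than bins beyond 250 bp, where the lines run low.

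Across the 435 members, the heptamer nearest to the maximum of the highest-ranked peak lay at a median distance of 100 bp (quartiles 49.5 and 196). It was within 100 bp in 219 members (50.3%) and more than 250 bp away in 77 (17.7%). The highest-ranked peak came from +dox replicate 3 in 403 members. Most members held 1 heptamer (288), while 119 held 2, 23 held 3, 4 held 4 and 1 held 6. The member with 6 lay at chr8:87173801-87174600 near N4bp1 and was called by +dox replicates 2 and 3 alone, with 8 and 18 alignments at the maximum. Members with 4 included chr15:56832401-56833250 near Has2, a hyaluronan synthase gene, and chr3:123256101-123257000 near Sec24d, a COPII coat gene. Each was called by no dox replicate 3 and +dox replicate 3 alone.

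The bases on either side of the heptamer can add to AP-1 affinity, and the extended site has a purine before and a pyrimidine after it. This held for 76 of 248 heptamers within 100 bp of the top maximum (30.6%, Wilson interval 25.2 to 36.6) and for 124 of 369 heptamers farther away (33.6%, 29.0 to 38.6). In the moved windows, taken 10 kb to either side of each member at its own width, it held for 38 of 199 heptamers (19.1%, 14.2 to 25.1). The flanks near the maximum and those farther away had overlapping intervals. The narrower flank, A before and T after, held for 9 heptamers near the maximum (3.63%, 1.92 to 6.75), for 29 farther away (7.86%, 5.53 to 11.1) and for 7 in moved windows (3.52%, 1.71 to 7.08), with no higher share near the maximum.

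Among distal regions without CAGCTG, 435 of 962 held the heptamer (45.2%, Wilson interval 42.1 to 48.4). Of windows moved by 10 kb and without CAGCTG, 1106 of 5286 did (20.9%, 19.8 to 22.0). Over all distal regions, with or without CAGCTG, the heptamer was present in 48.0%, against 23.7% of moved windows. The excess of the heptamer is thus not particular to regions without CAGCTG. Members as a class were nevertheless no larger a share of the distal regions than of moved windows. A heptamer without CAGCTG was found in 7.72% of distal regions (Wilson interval 7.05 to 8.45) and in 9.82% of moved windows (9.29 to 10.4). CAGCTG itself was present in 82.9% of distal regions and 53.1% of moved windows, which leaves fewer distal regions for the class. Just outside the interval CAGCTG was not rare: 34 members (7.82%) had it within 100 bp of an end, 84 (19.3%) within 250 bp and 163 (37.5%) within 500 bp.

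Some other E-boxes were more frequent in members than in the windows beside them, and others less. CAGGTG, or CACCTG on the other strand, was present in 68.7% of members (Wilson interval 64.2 to 72.9) and in 59.95% of their moved windows (56.7 to 63.2). CAGATG was present in 75.9% (71.6 to 79.6) against 64.8% (61.6 to 67.9), and CACGTG in 22.1% (18.4 to 26.2) against 15.7% (13.4 to 18.2). CACATG was present in 61.8% against 66.9%, and CATATG in 20.9% against 28.4%. Over all distal regions the directions were the same. There CAGGTG was present in 68.9% against 65.6% of moved windows, CAGATG in 74.4% against 69.3% and CACGTG in 21.4% against 19.8%. CACATG was present in 67.2% against 70.0%, and CATATG in 22.2% against 29.2%. Per kb, members held 1.05 CAGGTG and 1.21 CAGATG, compared with 0.994 and 1.05 in regions with CAGCTG alone.

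The hexamers of factors that share enhancers with AP-1 were also counted, on both strands. CATTCC was present in 55.4% of members (Wilson interval 50.7 to 60.01) and in 47.0% of their moved windows (43.7 to 50.3). It was present in 67.4% of distal regions with both motifs and 60.1% of those with CAGCTG alone, whose intervals are longer. TGTGGT was present in 70.3% of members (65.9 to 74.4) and 63.4% of moved windows (60.2 to 66.5). The MEF2 site was present in 11.5% of members against 17.7% of moved windows, and the CArG box of SRF in 7.13% against 7.36%.

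The members lay mostly in introns and intergenic sequence, as did the other distal regions. Introns held 248 members (57.0%, Wilson interval 52.3 to 61.6), intergenic sequence 182 (41.8%) and exons outside the coding sequence 5 (1.15%). Among regions with CAGCTG alone, 58.6% lay in introns. The median distance to the nearest protein-coding start was 43745 bp for members and 38059 bp for regions with CAGCTG alone. GC content had a median of 49.6% in members, 50.8% in regions with CAGCTG alone and 51.6% in regions with neither. A distal region with CAGCTG lay within 50 kb of 242 members (55.6%), and another member lay within 50 kb of 55 (12.6%). At the edge of the distance rule, the nearest member inside lay at chr7:114777851-114779700 near Insc, 10040 bp from a start, and the nearest region outside at chr4:136432651-136434350 near Htr1d, 9971 bp from a start. Both were called in 2 libraries.

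The strongest members lay near genes of varied function. The highest, at chr16:92903251-92905100, was intergenic, 78027 bp from the start of Runx1, a RUNX transcription factor. Its peak stood at percentiles 95.7, 97.9 and 99.4 in no dox replicates 1, 2 and 3 and at 86.4, 95.7 and 99.9 in the +dox replicates. Its maximum signal was 27.5, 42.0 and 42.0 CPM without dox and 27.9, 45.04 and 96.1 CPM with dox. Only +dox replicate 3 stood clear of the other 5 libraries there.

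The member near Tas1r2, a sweet taste receptor gene, lay between genes at chr4:139716151-139717400. It was at percentiles 99.03, 99.3 and 99.6 without dox and 73.3, 97.1 and 99.7 with dox, so +dox replicate 1 was low. In an intron of Gosr2, which encodes a Golgi SNARE, chr11:103684501-103686650 stood at 90.5, 97.0 and 96.6 without dox and 81.6, 91.1 and 98.6 with dox. In an intron of Rnf150, a RING finger gene, chr8:82926451-82927750 stood at 91.4, 94.2 and 87.1 without dox and at 68.9, 95.2 and 98.3 with dox. Each of these members was lowest in +dox replicate 1, the shallowest library, and highest in +dox replicate 3, the deepest.

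The intergenic member at chr2:27858251-27859550, 27524 bp from the start of Col5a1, a fibrillar collagen gene, had the narrowest spread among the 8 highest. Its percentiles were 84.8, 87.7 and 84.8 without dox and 88.1, 87.4 and 97.4 with dox. Its maximum signal was 13.0, 13.6 and 7.71 CPM without dox and 30.7, 22.8 and 21.2 CPM with dox, and the groups did not overlap on this scale. The other members of the highest 8 lay near Adamtsl4, Lbh and Sftpb, with mean percentiles from 83.4 to 85.1.

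Of the 15 members called with dox alone, the highest lay at chr11:108980251-108981950, 57920 bp from the start of Axin2, a feedback inhibitor of Wnt signalling. Its percentiles were 76.8, 77.7 and 84.8 in +dox replicates 1, 2 and 3, from maxima of 52, 52 and 42 alignments. The next, at chr12:104055601-104056250 near Serpina12, which encodes the adipokine vaspin, stood at 68.9, 77.7 and 89.7, from 40, 52 and 60 alignments. The third, at chr11:74438651-74440050 in an intron of Rap1gap2, a GTPase activator of Rap1, stood at 58.4, 71.0 and 86.3, and its nearest protein-coding start was that of Olfr412. All 3 were at or above the middle of each +dox list.

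Further members called with dox alone lay near Fam171a1, Mypn, Smad6, Copg1 and Arhgef10l. Mypn encodes myopalladin, a Z-line protein of the sarcomere, and its member at chr10:63221051-63222150 stood at 45.3, 46.9 and 91.7. Smad6 encodes an inhibitor of BMP signalling, and its member at chr9:63941551-63942250 stood at 67.2, 42.4 and 70.8, from 38, 22 and 22 alignments. A list gives no value where no peak was called, so the signal of these members without dox is not known.

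**Figure D4:**
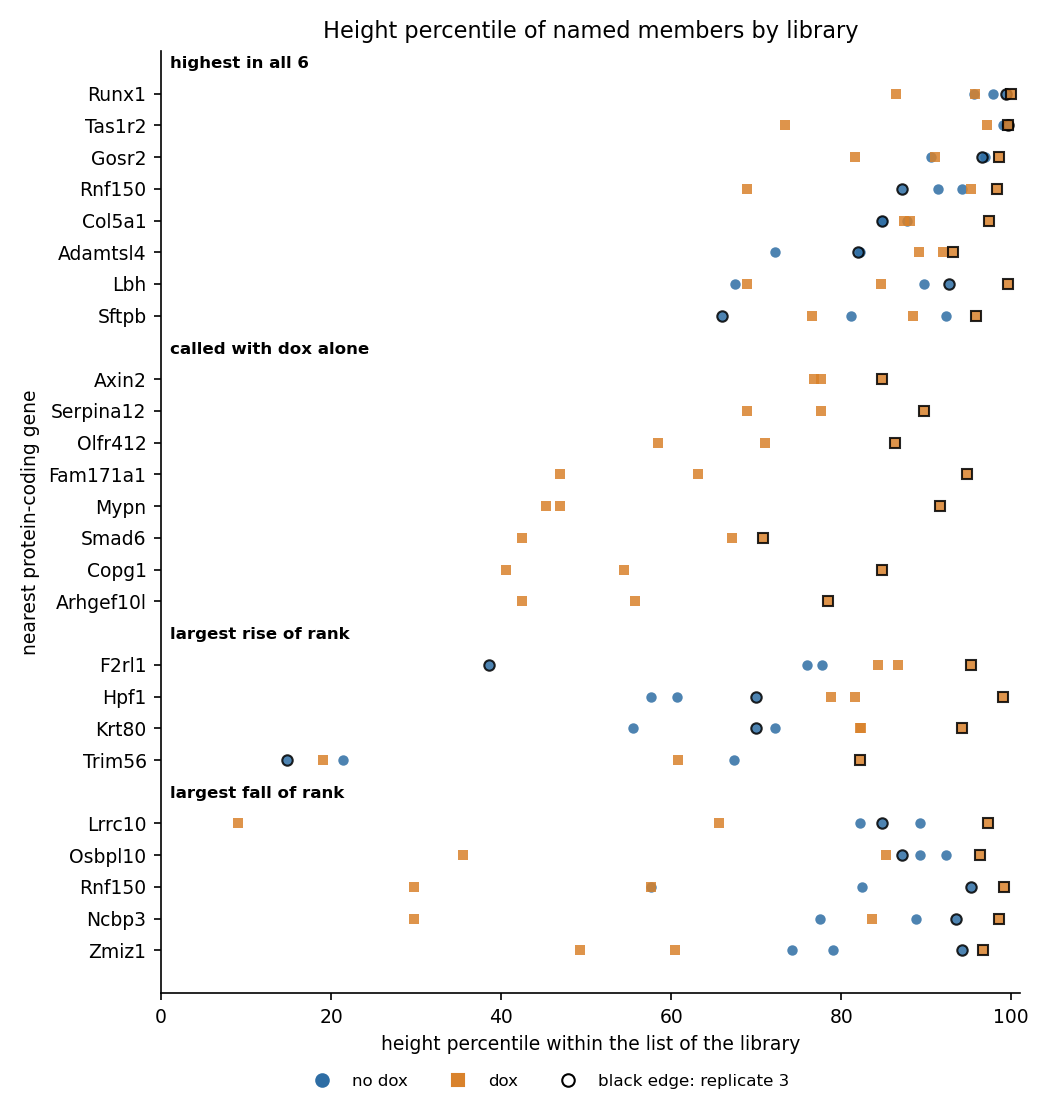
Height percentile within the list (x axis) of the named members (y axis, by nearest protein-coding gene) in each library; circles are no dox, squares +dox, and a black edge marks replicate 3. The 8 highest members lie mostly above the 80th percentile, the 8 members called with dox alone have squares only, and in the members with the largest rise or fall the groups overlap except near Hpf1, Krt80 and F2rl1.

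Among the 51 members called in all 6 libraries, the mean percentile was higher with dox in 30, as it was in 721 of the 1220 other distal regions called in all 6, a like share. The median change was 5.22 points in members and 1.42 points in the other distal regions, and this difference was not tested. Every +dox percentile was above every no dox percentile in 7 of the 51 members, against 23.7% of all regions called in all 6, and below in 0 members, against 0.0413%. For chr13:95545401-95546300 near F2rl1, a protease-activated receptor gene, the values were 76.0, 77.7 and 38.6 without dox and 84.3, 86.6 and 95.3 with dox. For chr8:60773101-60773950 near Hpf1, a cofactor of PARP enzymes, they were 57.7, 60.7 and 70.0 without dox and 81.6, 78.8 and 98.98 with dox. In both, and near Krt80, every +dox library was above every no dox library. The groups overlapped at chr5:137102151-137103700 near Trim56, an E3 ubiquitin ligase gene, with 21.4, 67.4 and 14.9 without dox and 60.8, 19.0 and 82.2 with dox.

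The greatest fall was at chr10:117020751-117022000 in an intron of Best3, near Lrrc10, at 82.2, 89.3 and 84.8 without dox and 9.0, 65.7 and 97.3 with dox. At chr9:115148701-115149900 in an intron of Osbpl10 the values were 89.2, 92.4 and 87.1 without dox and 35.5, 85.2 and 96.3 with dox. In each of these 2 members +dox replicates 1 and 2 were below every no dox library, with replicate 1 the lowest. The highest library was +dox replicate 3, which has the longest list, so the fall was not shared by all 3 +dox libraries. Further falls lay near Rnf150 (chr8:82931201-82932250), Ncbp3 (chr11:73036251-73037800) and Zmiz1 (chr14:25184151-25187050). There +dox replicate 1 was again the lowest library, at 29.7, 29.7 and 49.3, and +dox replicate 3 the highest, at 99.1, 98.5 and 96.7. The values of +dox replicate 2 were 57.6, 83.6 and 60.5. They were below every no dox library near Zmiz1 and, by a narrow margin, near Rnf150, but not near Ncbp3.

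On the scale of maximum signal, members in all 6 libraries were weaker than the other distal regions in each library. The mean log2 difference was -0.49, -0.50 and -0.46 in no dox replicates 1, 2 and 3, and -0.62, -0.57 and -0.35 in the +dox replicates. The mean difference was -0.48 ± 0.023 without dox and -0.51 ± 0.14 with dox (SD, n = 3), and the change of -0.031 was not larger than the spread (exact two-sided permutation p = 0.8, adjusted p = 0.8). Within pairs of the same number the difference was higher with dox in 1 of 3, with changes of -0.128, -0.070 and 0.104 (exact sign-flip p = 0.75). The scale of a library cancels in this measure.

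With limma (Benjamini-Hochberg adjusted) on log2 maximum CPM over the 4838 regions called in all 6 libraries, 0 members and 0% of all regions passed an adjusted p of 0.05 in either direction. At an unadjusted limma p under 0.05, 11 of 51 members were higher with dox and 0 lower, against 1173 and 0 of all 4838 regions. Without +dox replicate 3, 10 of 51 members and 1955 of 4838 regions were higher at an adjusted limma p under 0.05. In that setting 0 members and 5 regions were lower. With the libraries numbered 1 and 2 alone, 9 of 51 members were higher and 2 lower, against 1700 and 12 of 4838 regions. The median log2 change was 0.71 over the 51 members and 0.91 over all regions, so members are read against that shift. Every +dox library was above every no dox library on this scale in 14 of 51 members, against 27.5% of all regions, and below in 0 members, against 0% of all regions. Once each library was centred on its median, 3 members were wholly above and 3 wholly below, against 3.37% and 5.17% of all regions, and the median change of the members was -0.21.

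Same-numbered libraries deviated together, most clearly those numbered 3, so the fit was repeated with the replicate number as a block. The pairing of the other numbers was less clear. With the replicate block, 23 of the 51 members were higher with dox at an adjusted limma p under 0.05, against 53.5% of all regions, and 0 were lower, against 0.0620% of all regions. When the block was combined with centring, which was chosen after the data were seen, 0 members and 0% of all regions passed. The largest rise was near Hpf1, at 6.05, 5.42 and 4.71 CPM without dox and 22.3, 15.0 and 35.9 CPM with dox, a log2 change of 2.09 ± 0.55 (SE; limma adjusted p = 0.203, and 4.01e-05 with the block). Near F2rl1 the log2 change was 1.74 ± 0.60 (limma adjusted p = 0.203, and 4.00e-04 with the block), and near Krt80, a keratin gene, 1.53 ± 0.55 (0.203, and 0.00128 with the block). These SE values are of the fit without the block. With the block the SE was 0.39 near each of Hpf1, F2rl1 and Krt80. As limma shares variance over all regions, the p-values with the block do not measure the spread at a single site. After centring, without the block, the log2 changes near Hpf1, F2rl1 and Krt80 were 1.17, 0.81 and 0.60 (limma adjusted p = 0.983 in each).

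**Figure D5:**
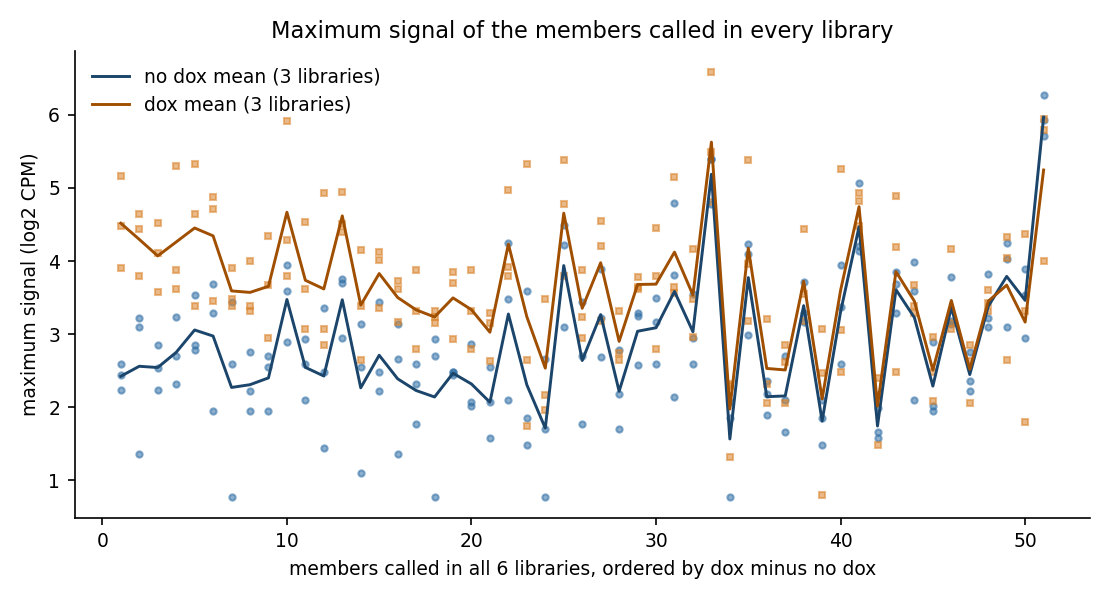
Maximum signal in log2 CPM (y axis) of the 51 members called in all 6 libraries, ordered by +dox minus no dox (x axis); circles are no dox libraries, squares +dox libraries, and lines join the means of 3 libraries. The +dox mean is above the no dox mean in 48 members before centring, and the points of the groups overlap in most of them.

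The members were spread over 396 nearest protein-coding genes. Of these, 364 had 1 member, 26 had 2, 5 had 3 and Runx1 had 4. Runx1 was the nearest gene of 18 distal regions of any class. Its other members lay at chr16:92963251-92964050, called in 1 no dox and 3 +dox libraries, and in introns of the gene at chr16:92653901-92655250 and chr16:92623301-92624650. The last was called in 0 no dox and 3 +dox libraries, at percentiles 52.8, 12.5 and 77.0.

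The genes with 3 members were Bcor, Col4a1, Htra1, Myh9 and Smad7. Those of Col4a1, a basement membrane collagen gene, lay in introns of its divergent neighbour Col4a2, at chr8:11392801-11394350, chr8:11370751-11372650 and chr8:11352401-11353100. The first of them was called in 3 no dox and 2 +dox libraries. The 3 members of Myh9, the heavy chain of a non-muscle myosin, lay in its own introns, and each was called in +dox replicate 3 and in 1 or 2 no dox libraries.

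Gene lists were then compared by how many of their genes were nearest to a member. Among 50 extracellular matrix genes, 6 were nearest to 10 members (2.30% of members), and 64 other distal regions (1.23%) had a gene of the list. Among 62 focal adhesion and stress fibre genes, 8 were nearest to 11 members (2.53%), against 1.62% of other distal regions. These included Tln2, a talin, and Itga11, a collagen-binding integrin. The intron of Itga11 held a member at chr9:62712151-62713100, called in 1 no dox and 3 +dox libraries. Among 49 TGF-beta and BMP signalling genes, 5 were nearest to 8 members (1.84%), against 1.25%. One of these, chr9:63838751-63839900 near Smad3, a TGF-beta effector, was called at percentile 78.9 in no dox replicate 1, and its +dox percentiles were 78.7, 67.7 and 83.1. The counts are small, a long gene can gather more regions, and no test was made.

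Few genes of AP-1 itself were nearest to a member. Of 19 AP-1 family factors, Jdp2, a repressor of AP-1, and Maf, a large MAF protein, had 1 member each (0.460% of members, against 0.269% of other distal regions). Both were called by no dox replicate 3 and +dox replicate 3 alone. Of 28 AP-1 responsive matrix and protease genes, Timp3, a metalloprotease inhibitor, had 1. Of 28 ERK feedback and immediate-early genes, 4 had 5 members (1.15%, against 1.35%), of which both members near Trib1, a pseudokinase gene, were called in all 6 libraries. At chr15:59822651-59824200 that peak stood at 43.0, 69.9 and 61.2 without dox and 73.3, 65.7 and 93.2 with dox.

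Muscle gene lists were counted in the same way. Of 44 myogenic regulators, 3 were nearest to 6 members (1.38%, against 1.60% of other distal regions), and 4 of the 6 were the Runx1 members. The others lay near Lbx1 and Meox1, homeobox genes of muscle precursors and of the somite. Of 54 sarcomere genes, Mylk4, a myosin light chain kinase gene, had 1 member (0.230%, against 0.269%), at chr13:32679901-32681250, called in 0 no dox and 2 +dox libraries. The list does not hold Mypn, described above, nor Myl10, a myosin light chain gene whose member was called in 3 no dox and 2 +dox libraries, so the count depends on how the list was drawn. Of 28 YAP and TEAD targets, 3 had 3 members (0.690%, against 0.5%), and of 48 cadherin and immunoglobulin-type adhesion genes 2 had 3 members (0.690%, against 0.481%). Ncam1, a neural cell adhesion molecule of myoblasts, had 2 of the latter.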

How the data were processed

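CUT and RUN with an anti-Flag M2 antibody was analysed in 6 libraries, 3 without dox and 3 with dox, grouped by their labels. Per the study's methods, the authors ran nf-core/cutandrun 3.2.2 on mm10, removed blacklisted regions, scaled coverage to CPM and called SEACR relaxed peaks in each library. A control library for calling is not given in the sources used here. The deposited signal values are the total and the maximum coverage of each peak in CPM, with no spike-in. Every distinct maximum signal was a whole multiple of 1 step per library, within 0.02 of a step plus 1e-05 of the multiple, and the step gave the depth in alignments. A list holds no value where no peak was called, and CPM carries no absolute scale.

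Motifs were read from GRCm38.p6, and starts and coding exons from the GENCODE M21 basic set. The coding exon rule was applied to the centre of a region. Height percentiles were ranked within a list. Libraries were the unit of replication, and each is a biological replicate by its label. Exact two-sided permutation tests ran over 20 assignments and sign-flip tests over 64 sign patterns, adjusted over 9 tests by Benjamini-Hochberg. The sign-flip tests over all libraries take them as independent, although same-numbered libraries were taken as pairs. Sign-flip tests within the 3 pairs cannot give a p below 0.25. Log2 maximum signal was fitted with limma 3.58.1 in R 4.3.3, with no pseudocount. Other steps used Python 3.11.15, numpy 2.4.6, pandas 2.3.3, scipy 1.17.1 and pysam 0.24.0. The steps were tested on simulated data. Wilson intervals are at 95% and cover counting error only.

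The replicate numbers in the labels were checked as pairs. Deviations from the group means correlated at 0.485, 0.267 and 0.628 for numbers 1, 2 and 3 over 4838 regions. No dox 1 with +dox 2 gave 0.265, and no dox 2 with +dox 1 gave 0.219. Number 3 with another number gave -0.560 to -0.321. Deviations from a group mean sum to 0 over its 3 libraries, so negative values beside a positive one are in part built in. The check thus set number 3 apart, while number 2 was hardly closer to itself than to number 1. The numbers were taken to pair the libraries, although the labels do not say what a number shares. Results within pairs and with the block rest on that choice, made from these data.

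Members, gene lists and tests were chosen with earlier results of these data known. Named regions were the 8 highest members called in all 6 libraries, the 8 highest called in 3 +dox and 0 no dox libraries, the reverse (0 found), the 5 largest rises and falls of mean percentile, up to 4 members per gene list, and those with most heptamers. Runx1, Col4a1 and Myh9 members outside these were named for their number of members. Some members the rule names, mainly of the gene lists, are given in counts alone, and 1 result is not reported here.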

Additional observations from a re-analysis of the deposited data

How the results depend on the processing

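Leaving out each library in turn gave +dox minus no dox differences of 0.103 to 1.16 points for the share of distal peaks and 1.02 to 8.29 points for the call rate against regions with CAGCTG alone, and neither changed direction in any of 17 alternatives. The height difference to regions with CAGCTG alone ran from -11.8 to -6.28 and the heptamer excess from 22.2 to 25.5 points, each at exact p = 0.0625, the smallest that 5 libraries can give. The height difference to regions with neither motif ran from 2.76 to 9.88. The log2 signal difference ran from -0.099 to 0.0080, positive without no dox replicate 3. The count of members called with dox alone ran from 17 to 48, under a rule that each omission eases. By limma, 0 to 1960 of 4838 regions and 0 to 10 of 51 members were called, both highest without +dox replicate 3.

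With the libraries numbered 1 and 2 alone, the height difference to regions with CAGCTG alone was -9.26 and the heptamer excess 24.01. The exact sign-flip p was 0.125 in each, the smallest 4 libraries allow. In that setting 29 of 239 members were called with dox alone, by a rule over fewer libraries. There limma called 1712 of 4838 regions (1700 higher and 12 lower with dox) and 11 of 51 members (9 higher and 2 lower). With the replicate block limma called 2589 regions and 23 members, and the block changed no other call. With intervals of 500 to 1500 bp the height difference was -5.53 (exact p = 0.125) and the log2 signal difference 0.0089. With motifs within 250 bp of the highest maximum the log2 signal difference was 0.056 and the heptamer excess of members against regions with both motifs -0.143. With lists of equal length the group difference in height was -1.12. Members called with dox alone were 6 of 262 with those lists and 6 of 282 beyond 20 kb, with no share over all regions counted. The looser 2 of 3 rule gave 126. The height difference to regions with neither motif reached an exact sign-flip p of 0.031 beyond 20 kb (7.80), beyond 5 kb (7.58), with all transcripts (10.1), with the 250 bp windows (6.48) and with total signal (10.6). The causes were not tested. Depth limits the precision of single members, whose median maxima held 16 to 36 alignments.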
